A study of Homo sapiens with 9 samples.

Results

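The genes described here are the 10 members of the oxygen-sensing system in the deposited table, namely the HIF alpha subunits HIF1A, EPAS1 and HIF3A, the beta subunits ARNT and ARNT2, the prolyl hydroxylases EGLN1, EGLN2 and EGLN3, the asparaginyl hydroxylase HIF1AN and the recognition protein VHL. They were taken by symbol, and all 10 were found among the 60591 symbols of the table. Undifferentiated Caco-2 (uCaco-2) cells, proliferating cells of a human colon adenocarcinoma line, were exposed for 24 h to 300 μM cobalt (II) chloride (CoCl2), to 5 μM of the oxyquinoline derivative (OD) 4896-3212, or to fresh medium as control. The DMSO in which OD was dissolved was stated to be present in all 3 conditions, with 0.5% added to the CoCl2 and control medium, though 5 μM from the stated 10 mM stock would carry 0.05%, so equal DMSO in the OD cells is uncertain. Each condition had 3 biological replicates of poly(A)-selected mRNA. Everything given here therefore comes from 1 cell line and 1 time point, and protein and hydroxylase activity were not analysed here.

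In the presence of oxygen, the EGLN enzymes use iron and 2-oxoglutarate to hydroxylate prolines of the HIF alpha subunits, and VHL then binds the hydroxylated protein and recruits a ubiquitin ligase that marks it for the proteasome. HIF1AN (factor inhibiting HIF) hydroxylates an asparagine and so keeps the coactivators EP300 and CREBBP away. When hydroxylation is blocked, an alpha subunit pairs with ARNT and binds the short sequence RCGTG near its target genes, some of which encode EGLN enzymes themselves. In the gut, HIF1A is tied to epithelial barrier and metabolic functions, and EPAS1 (HIF-2 alpha) to iron absorption. Cobalt is thought to replace iron in the prolyl hydroxylases, and oxyquinolines to block their active centre, and the comparisons ask how the mRNA of the sensing system itself differed after each.

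The promoters of 3 of the 4 members upregulated over 2-fold with CoCl2, all but EGLN2, are shown beside that of HIF3A, which was downregulated. They let the reader see where the HIF core motif lies. Each sequence holds the 250 bases before a RefSeq start on GRCh38.p14, and capitals mark ACGTG or GCGTG on either strand.
EPAS1 (chr2:46297157-46297406, plus strand): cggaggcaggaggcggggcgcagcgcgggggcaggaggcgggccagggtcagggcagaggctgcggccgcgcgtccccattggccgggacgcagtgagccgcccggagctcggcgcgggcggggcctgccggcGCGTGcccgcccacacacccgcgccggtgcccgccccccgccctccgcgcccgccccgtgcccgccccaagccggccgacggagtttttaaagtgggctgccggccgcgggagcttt
EGLN1 (chr1:231422288-231422537, minus strand): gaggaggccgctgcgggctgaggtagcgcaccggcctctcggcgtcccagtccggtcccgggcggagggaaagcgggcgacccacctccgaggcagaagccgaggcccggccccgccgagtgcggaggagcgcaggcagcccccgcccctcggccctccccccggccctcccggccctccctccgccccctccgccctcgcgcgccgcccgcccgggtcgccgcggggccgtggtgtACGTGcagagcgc
EGLN3 (chr14:33951075-33951324, minus strand): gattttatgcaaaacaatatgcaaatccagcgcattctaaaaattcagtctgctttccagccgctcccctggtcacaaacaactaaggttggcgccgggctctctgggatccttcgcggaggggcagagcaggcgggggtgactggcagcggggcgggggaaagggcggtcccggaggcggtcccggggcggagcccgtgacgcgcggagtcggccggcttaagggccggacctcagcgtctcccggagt
HIF3A (chr19:46296792-46297041, plus strand): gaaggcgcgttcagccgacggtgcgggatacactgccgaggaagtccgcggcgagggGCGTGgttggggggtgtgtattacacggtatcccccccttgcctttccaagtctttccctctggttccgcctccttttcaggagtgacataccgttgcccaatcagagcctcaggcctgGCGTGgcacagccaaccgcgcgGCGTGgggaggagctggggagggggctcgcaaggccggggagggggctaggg
The table used here paired 12 starts with 8 members, all but ARNT2 and VHL. The motif was found before 5 of the 12 starts, against 43.2% of all 35116 promoters of that length. EPAS1 has 1 match 117 bases before its start and EGLN1 has 1 match 13 bases before it, while the EGLN3 window holds none. HIF3A has 3 matches before its first start, a number reached or passed by 7.8% of all promoters, and none before its other 2 starts. HIF1A has 1 match, 204 bases before the first of its 2 starts. The 2 matches of EGLN2 are the 2 strands of a single palindrome, CACGTG, and the windows of ARNT and HIF1AN hold none. The windows of EPAS1 and EGLN1 held 80.8% and 81.2% GC, where the median of all promoters was 58%, and that of HIF1AN held 54.4%. For EPAS1, EGLN3 and HIF1AN the GENCODE gene begins upstream of the window used, so these windows lie inside the gene. For ARNT and the first start of EGLN2 the gene begins within the window. The windows of the later starts of HIF1A, HIF3A and EGLN2 also lie inside the gene. A match is a description of the letters, and factor binding was not measured.

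Library totals ranged from 15998136 to 24209427 counts, and 15944 genes passed the expression filter of edgeR. Of the members, 9 were among these, and ARNT2 was not. Values are given as CPM, which relate a gene's counts to the library total scaled by the TMM factor of edgeR. These factors were 0.770 to 0.795 with CoCl2 and 1.11 to 1.15 in the other 6 libraries, so the scale matters: with library size alone the median log2 fold change of all tested genes with CoCl2 was -0.55, against -0.049 with TMM, and for OD it was 0.029 against -0.01. Since these are bulk libraries, a change in the share of cells cannot be told apart from a change per cell. Of 11 markers of intestinal epithelium, 9 had a mean of at least 1 CPM, while CDX1 had no count in any library and LGALS4 stayed between 0.245 and 2.55 CPM. The 4 enterocyte markers summed to only 6.28 to 13.3 CPM. Of 14 markers of fibroblasts, endothelium and leukocytes, PTPRC, CD68, COL1A2, DCN and KDR had at most 3 counts per library, while PDGFRA reached 55.4 to 94.5 CPM, LYZ 32.8 to 53.3, COL1A1 9.33 to 22.4, COL3A1 3.81 to 9.6 and PECAM1 1.21 to 2.5 CPM. Their part in the results was not tested.

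Of the 9 tested members, 4 were upregulated (EPAS1, EGLN1, EGLN2 and EGLN3) and 1 was downregulated (HIF3A) with CoCl2, where a call needs an edgeR adjusted p below 0.05 together with a change of more than 2-fold either way. Over all tested genes these shares were 19.9% upregulated and 23.4% downregulated. With OD, 2 members were upregulated (EPAS1 and EGLN1) and none was downregulated, against 9.09% and 4.16% of all genes. Between the treatments, EGLN2 was higher and HIF3A and HIF1AN were lower in CoCl2 than in OD cells, where 17.5% of all genes were higher and 23.8% lower. At an adjusted p under 0.05 without regard to size, 6 members were higher and 2 lower with CoCl2 (40.4% and 42.8% of all genes), but 4 higher and 5 lower with library size alone, where HIF1A, ARNT and VHL were lower. With OD 6 rose and 3 fell (32.3% and 33.3%), or 6 and 2 with library size alone. By the same rule 6 members were higher in CoCl2 cells than in OD cells and 2 were lower (40.2% and 43.2%), which turned to 3 higher and 6 lower with library size alone. When scaled by library size alone, HIF3A and HIF1AN were the 2 members called with CoCl2, and EPAS1, EGLN1, EGLN2 and EGLN3 still rose, by 0.80, 0.81, 0.98 and 0.76 on the log2 scale. Both treatments were compared with the same 3 control libraries.

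**Figure D1:**
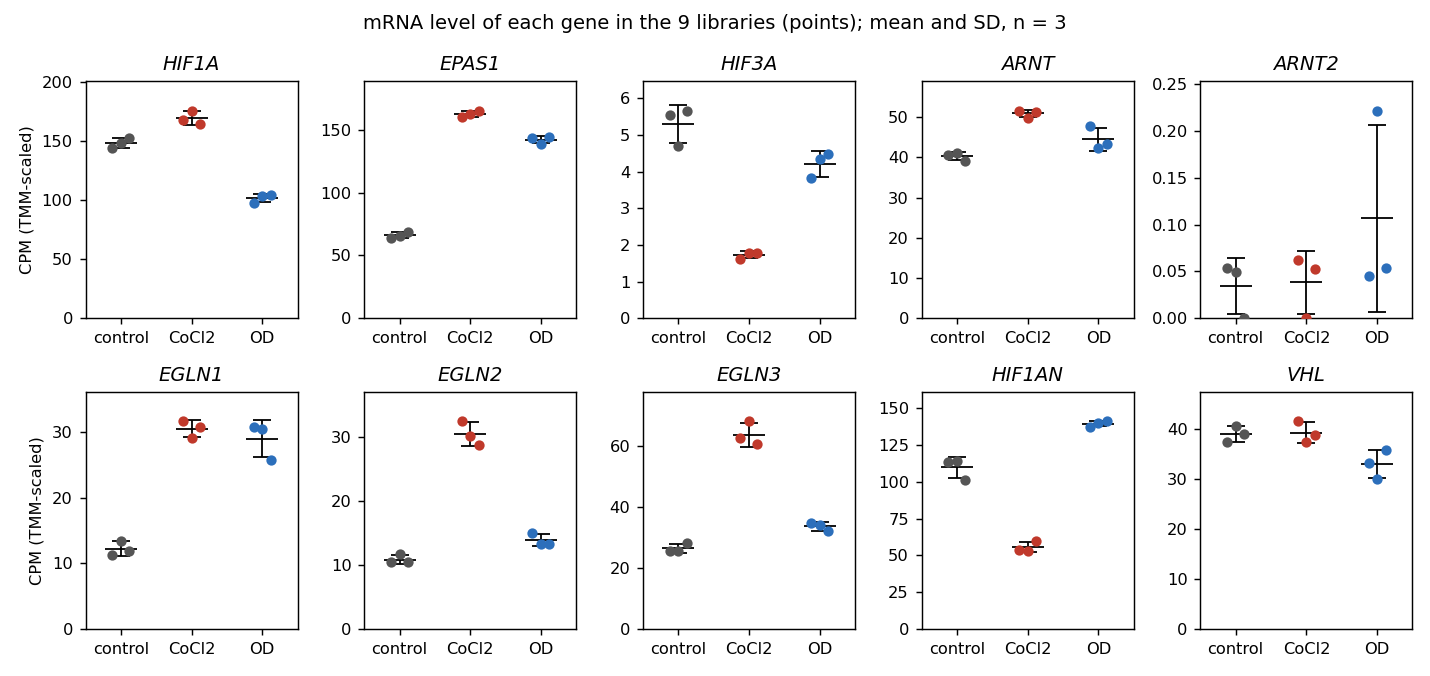
CPM (TMM-scaled) of each of the 10 genes in the 9 libraries, as points by condition, with mean and SD (n = 3) on axes that start at 0. EPAS1 and EGLN1 were raised by both treatments, EGLN2 and EGLN3 mostly by CoCl2, HIF1A fell with OD, and HIF3A and HIF1AN were lowest with CoCl2.

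EPAS1, which encodes HIF-2 alpha, is annotated at chr2:46293667-46386697 (GRCh38, plus strand). It had 64.0, 65.2 and 68.8 CPM in the control libraries, 159.9, 163 and 165 CPM with CoCl2 and 143, 139 and 145 CPM with OD. All 6 treated libraries lay above all control libraries, and those with CoCl2 lay above those with OD. CoCl2 raised it 2.46-fold, a log2 fold change of 1.30 (SE 0.047, edgeR adjusted p = 2.53e-35), and OD by 1.11 on the log2 scale (SE 0.046, edgeR adjusted p = 7.84e-31). The difference of 0.19 between the treatments (edgeR adjusted p = 5.49e-05) turned to -0.35 when scaled by library size alone, and with upper-quartile factors it was 0.063 (edgeR adjusted p = 0.171), so which treatment raised EPAS1 more depended on the scaling.

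HIF1A, which encodes the widely expressed HIF-1 alpha, is annotated at chr14:61695513-61748259 (GRCh38, plus strand). It had 144, 148 and 152 CPM in control cells, 168, 176 and 165 CPM with CoCl2 and 97.8, 104 and 104 CPM with OD. The OD libraries were the lowest, without overlap with the others. With OD the log2 fold change was -0.54 (SE 0.045, edgeR adjusted p = 6.89e-17), and it stayed between -0.55 and -0.50 in all alternatives run. With CoCl2 it was 0.19 (edgeR adjusted p = 7.31e-05) with TMM but -0.31 with library size alone (edgeR adjusted p = 1.35e-08). The other alternatives run gave 0.092 to 0.243, the lowest with upper-quartile factors (edgeR adjusted p = 0.0483). No direction for CoCl2 against control therefore held under every scaling. HIF1A was higher with CoCl2 than with OD, by 0.73 on the log2 scale (edgeR adjusted p = 2.57e-23), and by 0.19 with library size alone.

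A ratio of counts within a library does not depend on the scaling between libraries. The ratio of EPAS1 to HIF1A counts was 0.445, 0.440 and 0.452 in control cells, 0.954, 0.925 and 1.003 with CoCl2 and 1.46, 1.34 and 1.39 with OD. In every treated library EPAS1 had thus moved up relative to HIF1A, with no overlap between any pair of conditions. The ratio was 2.15-fold higher with CoCl2 and 3.13-fold higher with OD than in control cells. By the exact two-sided permutation test each of these had p = 0.1, the smallest that 3 against 3 libraries allow, and an adjusted p of 0.106 over the 18 tests of ratios. Comparing levels between the genes needs a value per length, given below.

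HIF3A, whose protein isoforms include inhibitors of the other alpha subunits, is annotated at chr19:46297042-46343433 (GRCh38, plus strand). It was the least abundant tested member, with 96 to 103 counts in control libraries, 23 to 34 with CoCl2 and 84 to 98 with OD. In CPM this was 5.54, 4.71 and 5.67 in control cells, 1.62, 1.78 and 1.78 with CoCl2 and 3.81, 4.35 and 4.47 with OD. The 3 CoCl2 libraries stood well below the rest, and the OD libraries lay just below the controls. The log2 fold change with CoCl2 was -1.61 (SE 0.173, edgeR adjusted p = 5.87e-13), 3.05-fold lower. With OD it was -0.33 (SE 0.134, edgeR adjusted p = 0.0265), and over the alternatives the adjusted p ranged from 0.0138 to 0.205. It was above 0.05 with DESeq2 on 6 libraries (0.186) and on 9 libraries (0.205), with library size alone (0.0516) and without a count filter (0.0627). It was also above 0.05 without OD replicate 1, control replicate 1 or control replicate 3, with log2 fold changes of -0.26, -0.28 and -0.28. The treatments differed by -1.28 (edgeR adjusted p = 2.11e-09).

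ARNT, the partner that the alpha subunits need to bind DNA, is annotated at chr1:150809713-150876708 (GRCh38, minus strand). It had 40.6, 41.1 and 39.2 CPM in control cells, 51.6, 49.8 and 51.3 CPM with CoCl2 and 47.7, 42.4 and 43.4 CPM with OD. Its log2 fold changes were small, 0.34 with CoCl2 (edgeR adjusted p = 4.67e-07) and 0.14 with OD (edgeR adjusted p = 0.0259). The former turned to -0.17 with library size alone. The adjusted p with OD passed 0.05 with DESeq2 and without a count filter, and also without OD replicate 1 (log2 fold change 0.09, edgeR adjusted p = 0.235) and without control replicate 3 (0.12, adjusted p = 0.105), and over the alternatives its adjusted p ranged from 0.00478 to 0.235. The difference of 0.20 between the treatments turned to -0.35 with library size alone.

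The ratio of HIF1A to ARNT counts was 3.54, 3.60 and 3.89 in control cells, 3.25, 3.52 and 3.21 with CoCl2 and 2.05, 2.45 and 2.40 with OD. It was 1.60-fold lower with OD than in control cells and 1.45-fold higher with CoCl2 than with OD, and with CoCl2 it was only 1.10-fold lower than in control cells (exact permutation p = 0.1 each, the smallest possible). ARNT2, a beta subunit best known from neural tissue, is annotated at chr15:80404350-80597933 (GRCh38, plus strand). It had 0 or 1 count in 8 of the 9 libraries and 5 counts in OD replicate 2. At this depth the beta subunit mRNA of uCaco-2 was therefore nearly all ARNT, and a change of ARNT2 was not detectable.

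**Figure D2:**
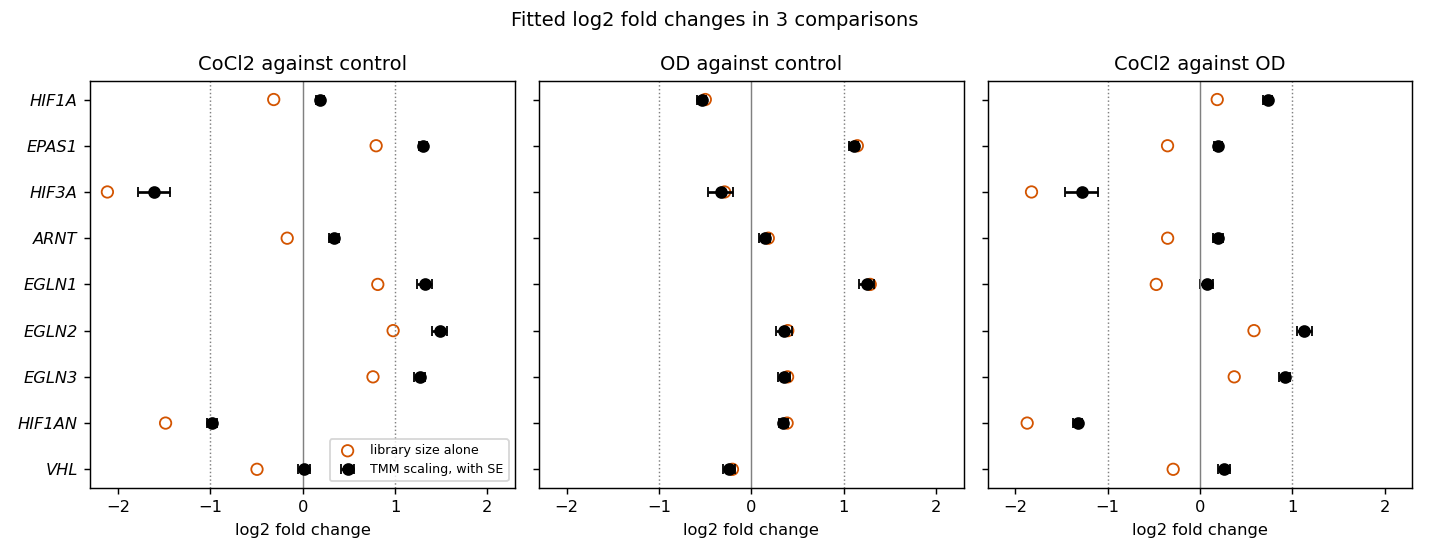
Fitted log2 fold changes of the 9 tested genes in the 3 comparisons, with TMM scaling (filled points, bars are SE) and when scaled by library size alone (open circles). Dotted lines mark a log2 fold change of 1 in size, and the open circles lie to the left of the filled points wherever CoCl2 is compared, by a nearly equal distance for each gene.

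The EGLN enzymes responded in 2 patterns. EGLN1 (PHD2), regarded as the main HIF prolyl hydroxylase in normal oxygen, is annotated at chr1:231363751-231422287 (GRCh38, minus strand). It had 11.3, 13.5 and 11.9 CPM in control cells, 31.7, 29.1 and 30.8 CPM with CoCl2 and 30.7, 30.5 and 25.8 CPM with OD. Every treated library was above every control library, and the treatments overlapped. Its log2 fold change with CoCl2 was 1.32 (SE 0.081, edgeR adjusted p = 3.97e-23), and OD gave 1.25 (SE 0.079, edgeR adjusted p = 7.34e-22). The treatments differed by 0.073, with a 95% interval of -0.068 to 0.213 (edgeR adjusted p = 0.333), and this value turned to -0.47 with library size alone and to -0.009 without OD replicate 3.

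EGLN2 (PHD1), which is mostly nuclear, is annotated at chr19:40798996-40808434 (GRCh38, plus strand). It had 10.4, 11.7 and 10.4 CPM in control cells, 32.4, 30.2 and 28.7 CPM with CoCl2 and 14.99, 13.3 and 13.3 CPM with OD. The CoCl2 libraries were far above the others, while the OD libraries lay only a little above the controls. Its log2 fold change with CoCl2, 1.48, was the highest among the 9 members (SE 0.082, edgeR adjusted p = 1.52e-25), and OD gave 0.35 (SE 0.089, edgeR adjusted p = 0.000387). The difference between the treatments was 1.13 (edgeR adjusted p = 4.51e-21), or 0.58 with library size alone.

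EGLN3 (PHD3), known as a strongly hypoxia-inducible member in many cell types, is annotated at chr14:33924227-34462774 (GRCh38, minus strand). It had 25.6, 25.7 and 28.1 CPM in control cells, 62.6, 68.2 and 60.6 CPM with CoCl2 and 34.8, 34.2 and 32.0 CPM with OD. No conditions overlapped, and the order was control, OD, CoCl2. CoCl2 raised it by 1.27 on the log2 scale (SE 0.062, edgeR adjusted p = 2.98e-28) and OD by 0.35 (SE 0.064, edgeR adjusted p = 2.56e-06), with a difference of 0.92 between the treatments (edgeR adjusted p = 3.06e-22), or 0.37 with library size alone.

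Within the libraries, the ratio of EGLN3 to EGLN1 counts was 2.26, 1.90 and 2.36 in control cells, 1.98, 2.34 and 1.97 with CoCl2 and 1.13, 1.12 and 1.24 with OD. The control and CoCl2 libraries overlapped (log2 difference -0.053, exact permutation p = 0.9), and without control replicate 3 the difference was 0.009. The OD libraries lay below both, 1.86-fold lower than in control cells. The ratio of EGLN2 to EGLN1 was 0.924, 0.866 and 0.873 in control cells, 1.02, 1.04 and 0.930 with CoCl2 and 0.488, 0.436 and 0.517 with OD. With OD it was 1.85-fold lower than in control cells, and with CoCl2 1.12-fold higher. In OD cells EGLN1 thus had more counts relative to both other EGLN genes than in control or CoCl2 cells (exact permutation p = 0.1 for each difference, the smallest possible, and adjusted p = 0.106).

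**Figure D3:**
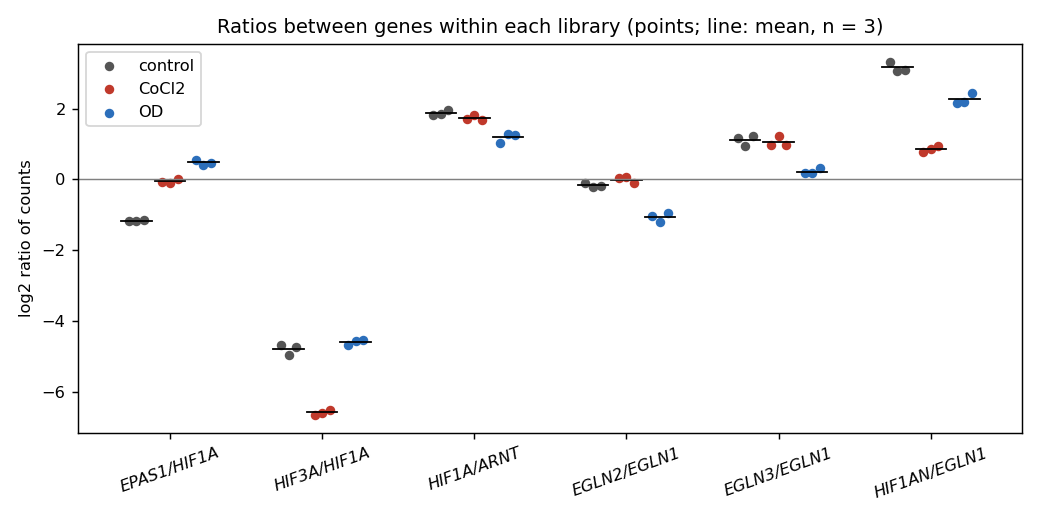
Log2 ratios of counts between pairs of members within each library (points, with the mean of 3 as a line), which do not depend on the scaling between libraries. EPAS1/HIF1A rose from control to CoCl2 to OD, both EGLN ratios were lowest with OD, and HIF1AN/EGLN1 and HIF3A/HIF1A were lowest with CoCl2.

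HIF1AN, the asparaginyl hydroxylase, is annotated at chr10:100529072-100559998 (GRCh38, plus strand), and it moved in opposite directions with the treatments. It had 114, 114 and 102 CPM in control cells, 53.9, 53.1 and 59.5 CPM with CoCl2 and 138, 140.3 and 141 CPM with OD. The 3 conditions did not overlap. With CoCl2 it fell, with a log2 fold change of -0.98 (SE 0.052, edgeR adjusted p = 3.44e-26), just short of 2-fold, and with OD it rose by 0.35 (SE 0.047, edgeR adjusted p = 2.87e-09). The fall with CoCl2 passed the fold threshold without CoCl2 replicate 3 (-1.035) or control replicate 3 (-1.039), and also with at least 10 counts in every library (-1.008), without a count filter (-1.044), with upper-quartile factors (-1.08) and with library size alone (-1.485). The direct difference of -1.33 (edgeR adjusted p = 2.23e-33) stayed between -1.87 and -1.28 in all alternatives run. The counts of HIF1AN were 10.0, 8.44 and 8.53 times those of EGLN1 in control cells, 1.70, 1.82 and 1.93 times with CoCl2 and 4.47, 4.597 and 5.47 times with OD. This ratio was 4.94-fold lower with CoCl2 and 1.86-fold lower with OD than in control cells. By the exact permutation test each had p = 0.1, the smallest possible, and an adjusted p of 0.106.

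VHL, the substrate-binding subunit of the ubiquitin ligase, is annotated at chr3:10141778-10153667 (GRCh38, plus strand). It had 37.3, 40.5 and 38.8 CPM in control cells, 41.4, 37.4 and 38.7 CPM with CoCl2 and 33.1, 30.0 and 35.7 CPM with OD. The CoCl2 libraries overlapped the controls, with a log2 fold change of 0.011 and a 95% interval of -0.116 to 0.138 (edgeR adjusted p = 0.876), which became -0.49 with library size alone. All OD libraries lay below the controls, with a log2 fold change of -0.24 (SE 0.063, edgeR adjusted p = 0.000496). The treatments differed by 0.26 (edgeR adjusted p = 0.000252), or by -0.29 with library size alone.

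Levels of different genes can be compared only per length, as RPKM over the union of the annotated exons. In control cells HIF1A stood first with 28.8 ± 0.829 RPKM (SD, n = 3), higher than 91% of the tested genes with a known length. EPAS1 followed with 9.05 ± 0.343 RPKM, and then HIF1AN with 7.90 ± 0.510 and VHL with 7.78 ± 0.321 RPKM, whose libraries overlapped. After them came ARNT (6.25 ± 0.154 RPKM), EGLN3 (3.59 ± 0.195), EGLN1 (2.27 ± 0.210), EGLN2 (1.65 ± 0.111) and HIF3A (0.633 ± 0.0623), each apart from its neighbours. ARNT2 was last in every condition. The lead of HIF1A over EPAS1 narrowed to 32.9 ± 1.10 against 22.3 ± 0.359 RPKM with CoCl2. With OD the pair overlapped, at 19.8 ± 0.702 and 19.5 ± 0.405 RPKM.

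With CoCl2 EGLN3 moved up to the third place with 8.66 ± 0.533 RPKM, and HIF1AN dropped to the eighth with 3.995 ± 0.251 RPKM. With OD HIF1AN kept the third place with 10.1 ± 0.134 RPKM, and EGLN1 (5.39 ± 0.521 RPKM) stood above EGLN3 (4.57 ± 0.1999 RPKM), reversing the order of the control cells. The order depends on the length used. For EGLN3 the union of exons is 7363 bases and the longest transcript 2849 bases, and with the latter EGLN3 took the third place in all 3 conditions, at 9.28, 22.4 and 11.8 RPKM in control, CoCl2 and OD cells. With that length EPAS1 was above HIF1A with OD, at 27.6 against 25.8 RPKM. In control cells HIF1AN then took the sixth place, at 8.49 RPKM. The SDs cover the spread of replicates only. Of 60 mean RPKM values recomputed with the longest transcript or with library size alone, 54 moved by more than the SD.

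**Figure D4:**
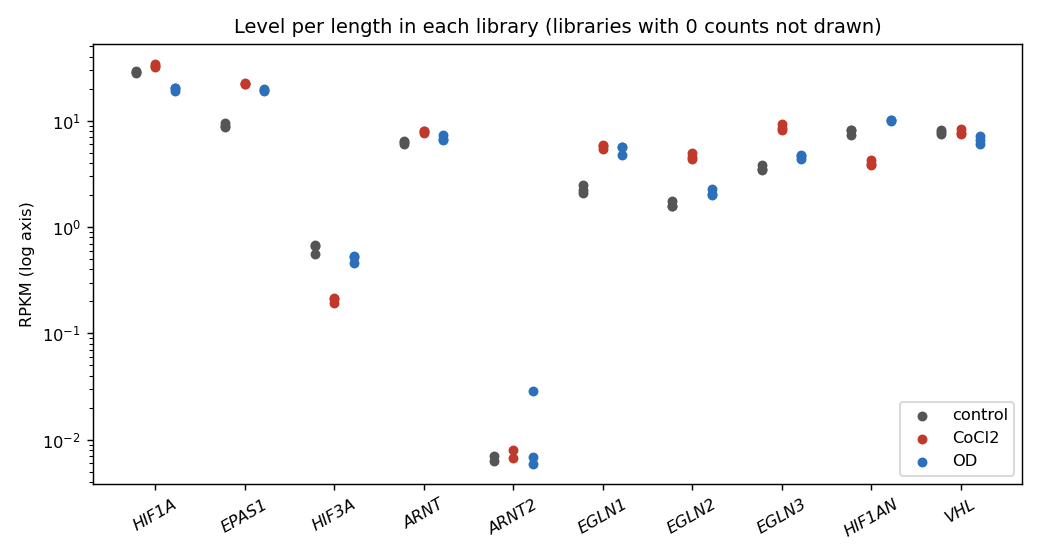
Level per length (RPKM, log axis) of the 10 genes in each library, by condition. HIF1A led in control cells with 28.8 RPKM on average, EPAS1 came level with it in OD cells, and ARNT2 lay orders of magnitude below the rest.

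Some of these genes share exonic bases with others in GENCODE release 44. The counts were made with an earlier release, not used here, so an overlap bears on them only where its gene model was already in that release. For EGLN1, 55.8% of the exonic bases are shared with a protein-coding gene model on the same strand. For EGLN2, 30.6% are shared on the same strand, mainly with the readthrough gene RAB4B-EGLN2, which had 0 counts in all 9 libraries. For VHL, 23.5% are covered by a long noncoding gene on the other strand. EPAS1, ARNT and EGLN3 share none. How the counting treated reads in shared bases is not given in the sources used here, so the levels of EGLN1, EGLN2 and VHL may be uncertain. HIF1A-AS3, an antisense transcript that covers 299 exonic bases of HIF1A, had 3, 5 and 0 counts in control libraries, 19, 13 and 31 with CoCl2 and 10, 24 and 14 with OD. It rose with both treatments, by log2 fold changes of 3.15 with CoCl2 (SE 0.466, edgeR adjusted p = 1.18e-08) and 2.37 with OD (SE 0.504, edgeR adjusted p = 3.79e-05), while HIF1A itself fell with OD. HIF1A-AS1 and EGLN3-AS1 had at most 2 counts in any library.

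Target genes of HIF gave the readout of the pathway in the same libraries. Of a list of 16 targets, itself chosen with these data known and so no independent evidence, 15 were tested, all but CA9, and 14 were upregulated with CoCl2 and 13 with OD, none downregulated, beside 19.9% and 9.09% of all genes upregulated. With library size alone 11 were upregulated with CoCl2, without VEGFA, PGK1 and LDHA (0.72, 0.595 and 0.82 on the log2 scale), and 14 with OD. Their log2 fold changes had a median of 2.39 in CoCl2 cells and 3.08 in OD cells, beside medians of 0.34 and 0.35 for the 9 tested members and of -0.049 and -0.01 for all tested genes. BNIP3, a mitophagy receptor, had log2 fold changes of 3.77 and 3.98, and PDK1, a kinase that inhibits pyruvate dehydrogenase, 2.39 and 3.26. ADM, which encodes adrenomedullin, rose with CoCl2 (3.34) and fell with OD (-0.46). SLC2A1, a glucose transporter, had a log2 fold change of 0.011 in CoCl2 cells, or -0.49 with library size alone, and rose by 0.996 with OD (edgeR adjusted p = 7.38e-30).

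The partners of VHL in its ubiquitin ligase, ELOB, ELOC, CUL2 and RBX1, all rose with CoCl2 and all fell with OD by the adjusted p. By that rule 40.4% of all genes were higher with CoCl2 and 33.3% were lower with OD. With library size alone, however, ELOB and CUL2 fell with CoCl2, to log2 fold changes of -0.196 and -0.228 from 0.31 and 0.28. Only ELOC with CoCl2 passed the fold threshold, from 47.1 to 153 CPM on average (log2 fold change 1.70, edgeR adjusted p = 1.85e-36), and with library size alone it rose by 1.20. Over all genes 19.9% were called upregulated with CoCl2. The log2 fold changes with OD were -0.30, -0.29, -0.30 and -0.17 for ELOB, ELOC, CUL2 and RBX1, beside -0.24 for VHL.

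Of 7 tested coactivators and modulators of HIF transactivation, 5 were upregulated with CoCl2 and 1 with OD, beside 19.9% and 9.09% of all genes, and with library size alone 2 were upregulated with CoCl2 and 1, CITED4, was downregulated. EP300 and CREBBP, the acetyltransferases that HIF1AN keeps away from HIF, had log2 fold changes of 1.19 and 1.04 with CoCl2. With OD CREBBP had one of 0.30, and EP300 one of 0.080 (edgeR adjusted p = 0.0951). CITED2, a HIF target that competes with HIF for EP300, rose from 45.1 to 264 CPM with CoCl2 (log2 fold change 2.55) and to 76.6 CPM with OD (0.77), a difference of 1.78 (edgeR adjusted p = 2.66e-42). ING4 was upregulated by both, by 1.60 and 1.06, and PKM by CoCl2, by 1.08. CITED4 and NCOA1 fell with CoCl2, with log2 fold changes of -0.66 and -0.39.

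Of 13 genes that regulate HIF stability, WSB1 and HSP90AB1 were upregulated with CoCl2 and WSB1 with OD, shares below the 19.9% and 9.09% of all genes upregulated, and with library size alone 0 were called with CoCl2, though these 2 still rose by 0.89 and 0.61. WSB1, a ubiquitin ligase adaptor that targets VHL, had log2 fold changes of 1.39 and 1.31, and the treatments differed by 0.080 (edgeR adjusted p = 0.0585), or -0.47 with library size alone. HSP90AB1, a chaperone that HIF1A protein binds, had one of 1.11 with CoCl2 and -0.78 with OD. SIAH2, a ubiquitin ligase for EGLN enzymes, had a log2 fold change of 0.38 with CoCl2, which turned to -0.12 with library size alone, and rose by 0.79 with OD.

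Among 7 tested relatives of the bHLH-PAS family, which share the dimerization domain of the HIF subunits, AHR was upregulated and ARNTL2 downregulated with CoCl2, and NPAS1, NPAS2 and ARNTL were upregulated with OD, beside 19.9% upregulated and 23.4% downregulated of all genes with CoCl2 and 9.09% upregulated with OD. With library size alone 2 were downregulated with CoCl2, ARNTL2 and SIM2. AHR, the dioxin receptor that also pairs with ARNT, had log2 fold changes of 1.69 and 0.85. ARNTL2 had one of -1.65 with CoCl2 and 0.13 with OD (edgeR adjusted p = 0.0663), with a difference of -1.78 (edgeR adjusted p = 1.1e-30). Of 9 other oxygenases, JMJD6 and OGFOD2 were upregulated and ADO, RIOX1 and RIOX2 downregulated with CoCl2, near the 19.9% and 23.4% of all genes, and with library size alone P4HTM (-1.453) was downregulated too. None was called with OD, beside 9.09% of all genes upregulated and 4.16% downregulated. At an adjusted p under 0.05 alone, 2 rose and 5 fell with OD, beside 32.3% and 33.3% of all genes. JMJD6 had log2 fold changes of 1.87 with CoCl2 and 0.28 with OD. ADO, a cysteine dioxygenase that also senses oxygen, had -1.35 and -0.79.

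**Figure D5:**
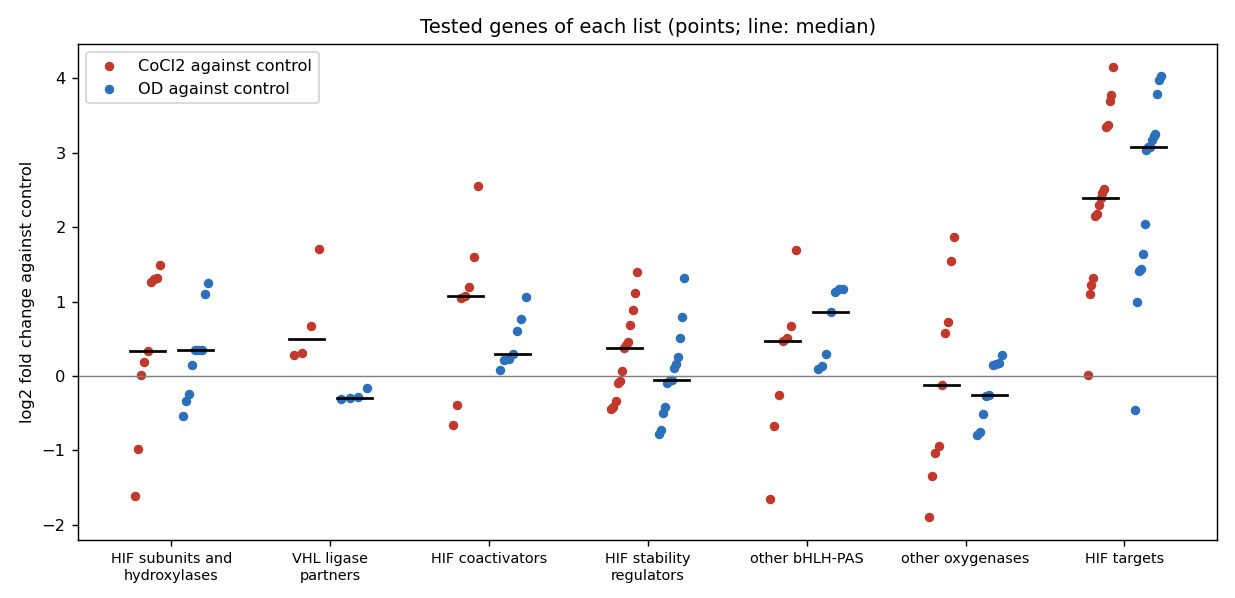
Log2 fold changes against control of the tested genes of each list, with CoCl2 and with OD (points, with the median as a line). The HIF targets, a list chosen with these data known, had medians of 2.39 and 3.08. The HIF subunits and hydroxylases spread on both sides of 0. The 4 VHL ligase partners lay above 0 with CoCl2 and below it with OD. With library size alone, however, ELOB and CUL2 turn negative with CoCl2.

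Profiles were the 3 condition means of the log2 of CPM plus 0.5, each set relative to their average. The genes with the most similar profile were those that lay nearest to the member, among 10423 genes averaging 5 CPM or more. For EPAS1 these were APAF1, FAM13A and CYP27A1, at distances of 0.014, 0.015 and 0.047, and for EGLN1 they were HKDC1, BBC3 and CYP27A1, at 0.023, 0.025 and 0.050. Only 52 and 39 genes lay within 0.2 of EPAS1 and EGLN1. The profiles of EGLN3 and EGLN2 were more common, with 324 and 254 genes within that distance. SLC39A7, OSBP and PACSIN2 were nearest to EGLN3, and ZNF277, NCOA4 and RNF181 to EGLN2. For HIF1AN they were NCDN, GLB1L2 and GRAMD1A, with 205 genes within 0.2, and for HIF3A ZNF75A, STAP2 and SLX4, with 296. The added 0.5 shrinks the profile of a gene as low as HIF3A. Its log2 fold change with CoCl2 was -1.61, and those of ZNF75A, STAP2 and SLX4 were -1.48, -1.38 and -1.42.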

How the data were processed

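mRNA of 9 uCaco-2 libraries was measured by single-end sequencing. Per the labels and methods, the authors assessed quality with FastQC 0.11.9, trimmed adapters with cutadapt 2.10, mapped reads with STAR 2.7.5b on GRCh38.p13 and deposited raw counts per gene symbol of a GENCODE release earlier than that used here. The counting tool, its strand setting and its treatment of shared reads are not given in the sources used here. All 9 columns were mapped to samples by title.

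edgeR 4.0.16 in R 4.3.3 filtered genes by expression, computed TMM factors and fitted a robust quasi-likelihood model over 9 libraries, with Benjamini-Hochberg adjustment over 15944 genes. A call needed an adjusted p below 0.05 together with a change of more than 2-fold, as in the study. Ratios used counts plus 0.5 and an exact permutation test. The planned ratio of ARNT2 to ARNT was not computed, given the counts of ARNT2. Lengths and coordinates came from GENCODE release 44 (GRCh38), matched by symbol for 88.7% of tested genes. Promoters came from RefSeq (GRCh38.p14).

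The members and lists were chosen with earlier results of these data known. Named genes are the members, the list genes that were called or overlap a member, and the 3 nearest profiles of each called member. Further genes (SIM2, CITED4, NCOA1, SIAH2, SLC2A1, ELOB, CUL2 and RBX1) were added once their values had been seen. The steps were tested on simulated data. Each pair of replicates differed beyond sampling noise (chi-square per degree of freedom 1.82 to 3.32). DESeq2 1.42.0, other scalings, filters, single libraries left out and a replicate block were alternatives.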

Additional observations from a re-analysis of the deposited data

How the results depend on the processing

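Of 486 log2 fold changes of members under alternatives, 454 kept their direction and side of the threshold of 0.05 on the adjusted p, 16 no longer passed it and 16 changed sign. Scaling by library size alone moved most. It left 2 members called with CoCl2 (HIF3A and HIF1AN) in place of 5, and gave CoCl2 against control values of -0.314 for HIF1A, -0.168 for ARNT and -0.495 for VHL, and CoCl2 against OD values of -0.352 for EPAS1, -0.351 for ARNT, -0.474 for EGLN1 and -0.291 for VHL. By construction it omits the composition factors, and the median of all genes with CoCl2 moved by a like amount. It also cut the share of called genes that were higher with CoCl2 than in control cells from 46% to 23.9%, and than with OD from 42.4% to 18.3%. The other sign changes were of values near 0. VHL with CoCl2 had -0.001 with DESeq2 on 6 libraries, -0.002 in edgeR on 6 libraries, -0.018 with at least 10 counts in every library, -0.054 without a count filter and -0.089 with upper-quartile factors, and -0.026 to 0.045 with single libraries left out. EGLN1 between the treatments had -0.059 with upper-quartile factors and -0.009 to 0.108 with single libraries left out. With upper-quartile factors, with at least 10 counts in every library and without a count filter 6 members were called with CoCl2, HIF1AN joining. Upper-quartile factors left 2 members called between the treatments in place of 3. With the adjusted p alone, 8 members changed with CoCl2, 9 with OD and 8 between the treatments. By that rule 40.4% of all genes were higher and 42.8% lower with CoCl2, and 32.3% and 33.3% with OD. Between the treatments these shares were 40.2% and 43.2%. With at least 10 counts in every library, fewer genes were tested and 1134 in place of 2113 were called with OD. Of 126 recomputed ratio differences 125 kept their sign, and EGLN3/EGLN1 with CoCl2 changed from -0.053 to 0.009 without control replicate 3.

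Whether the replicate numbers pair the libraries could not be settled. Same-numbered libraries had correlations of their deviations between -0.018 and 0.067. Replicate 2 matched its own number best in every pair of conditions, while replicates 1 and 3 did not always do so. With the replicate block, 6901, 2115 and 6568 genes were called with CoCl2, with OD and between the treatments, in place of 6891, 2113 and 6580, and no count of members changed. Depth limits ARNT2, and HIF3A to standard errors of 0.134 to 0.178.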
